A study of Homo sapiens with 12 samples.

Results

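Genes of sterol synthesis and of fatty acid synthesis were examined in KP4 cells, a human pancreatic cancer line that the labels describe as a ductal carcinoma of wild-type genotype. The 31 genes were chosen by name as enzymes and regulators of both routes, with earlier results of these data known. Each had a mean of at least 10 normalized counts over the 12 libraries, so all 31 were tested among 15376 genes (of 36601 listed). They comprise 18 genes of a sterol branch, from acetyl-CoA to cholesterol, 5 genes of regulation and sterol transport, called regulators below, and 8 genes of a fatty acid branch. The 4 treatments, each of 24 h, were compared with 3 libraries each. These were the vehicle DMSO, 10 mM metformin (Met), an inhibitor of complex I of the respiratory chain, 5 nM FK866 (FK), an inhibitor of the NAD salvage enzyme NAMPT, and both drugs (Met+FK). All groups come from a single line kept in medium with serum, which itself supplies cholesterol and fatty acids. The labels number the libraries 1 to 3 within each treatment and do not say that they came from separate cultures, so the p-values measure the spread between these libraries, which may be technical.

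Cells build cholesterol from acetyl-CoA through mevalonate, isoprenoids and squalene, and build fatty acids from acetyl-CoA through malonyl-CoA. Both routes are switched on by the SREBP transcription factors, with the product of SREBF2 acting mainly on sterol genes and that of SREBF1 mainly on fatty acid genes. The INSIG proteins hold the SREBP precursors in the endoplasmic reticulum when sterols are plentiful, and AMPK, a kinase activated when cellular energy is low, restrains both routes.

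Promoter sequence is shown for 7 members picked as examples after their values were seen, 3 sterol enzymes, 2 regulators and 2 fatty acid enzymes, each with at least 110 bases outside the deposited gene span. RefSeq (GRCh38.p14) windows were found for 27 of the 31 members, and 200 bases before each RefSeq start were searched on both strands for CACCCCAC and TCACNCCAC, forms of the sterol regulatory element, for CCAAT, the box bound by NF-Y, and for CACGTG, an E-box. The first 2 overlap each other. Of the 27 windows, 8 lay wholly inside the gene span of the deposited table. Only the bases outside that span are printed, 5′ to 3′ on the strand of the gene, and capitals mark each match, with ATTGG being CCAAT on the opposite strand. The genes are EBP (chrX:48521608-48521798, plus strand), IDI1 (chr10:1056705-1056904, minus strand, ending 7534 bases before the deposited gene), SC5D (chr11:121292571-121292680, plus strand), STARD4 (chr5:111512591-111512735, minus strand), SREBF2 (chr22:41832905-41833078, plus strand), SCD (chr10:100347033-100347232, plus strand) and ACACA (chr17:37406837-37407036, minus strand).
EBP: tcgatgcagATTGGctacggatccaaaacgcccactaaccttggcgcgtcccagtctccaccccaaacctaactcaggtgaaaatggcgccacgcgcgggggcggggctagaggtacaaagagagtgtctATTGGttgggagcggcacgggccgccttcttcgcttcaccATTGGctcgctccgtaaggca
IDI1: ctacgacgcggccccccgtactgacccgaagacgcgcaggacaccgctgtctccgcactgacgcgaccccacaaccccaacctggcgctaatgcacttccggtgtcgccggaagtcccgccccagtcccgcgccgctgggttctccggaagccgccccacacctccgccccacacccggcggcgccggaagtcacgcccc
SC5D: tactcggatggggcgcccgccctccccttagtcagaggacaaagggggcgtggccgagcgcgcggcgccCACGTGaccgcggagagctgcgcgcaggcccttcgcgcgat
STARD4: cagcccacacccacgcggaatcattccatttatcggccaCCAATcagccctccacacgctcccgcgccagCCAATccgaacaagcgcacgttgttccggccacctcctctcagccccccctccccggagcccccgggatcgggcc
SREBF2: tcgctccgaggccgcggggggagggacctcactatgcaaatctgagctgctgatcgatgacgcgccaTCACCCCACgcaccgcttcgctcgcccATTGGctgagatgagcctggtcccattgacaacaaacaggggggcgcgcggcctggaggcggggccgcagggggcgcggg
SCD: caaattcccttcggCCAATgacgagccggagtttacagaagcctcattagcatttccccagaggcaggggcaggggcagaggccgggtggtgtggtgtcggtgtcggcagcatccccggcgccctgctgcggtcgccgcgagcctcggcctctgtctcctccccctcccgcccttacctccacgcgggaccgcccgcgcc
ACACA: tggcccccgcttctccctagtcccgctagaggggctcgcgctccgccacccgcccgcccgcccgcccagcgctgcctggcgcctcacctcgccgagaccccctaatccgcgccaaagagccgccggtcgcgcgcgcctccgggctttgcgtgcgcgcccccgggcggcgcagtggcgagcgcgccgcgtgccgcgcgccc

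Matches to CCAAT were found in 12 of 15 sterol windows (80%), 3 of 5 regulator windows and 2 of 7 fatty acid windows (28.6%), against 28.9% of 27305 RefSeq windows of this length. EBP held 3 matches and STARD4 at 161 and 130 bases before the start, as printed above. CACCCCAC and TCACNCCAC were each matched in 1 of 27 members, SREBF2, at the same place, against 1.97% and 0.703% of all windows. CACGTG was matched in SC5D and INSIG1 (7.41% of members, 5.62% of all windows). These are matches of letters in a short window and carry no measurement of binding.

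Each library held between 30667735 and 41052203 counted read pairs, and values below are normalized counts, that is, read pairs divided by the library's size factor. Fold changes are on the log2(normalized count + 1) scale, which understates changes of low genes, with standard errors (SE) from limma-trend on all 12 libraries and adjusted p-values after Benjamini and Hochberg over the 15376 genes. A gene was called a differentially expressed gene (DEG) when it passed an adjusted p-value of 0.05 and changed by more than 1.5-fold, which is 0.585 in log2 units. The libraries differed in how their values followed the GC content of the transcript. The slope per 10 percentage points of GC, on the log2 scale, was 0.043 to 0.196 in DMSO, −0.245 to 0.0027 in FK, −0.139 to 0.080 in Met and −0.048 to 0.063 in Met+FK, so the value with the GC and length trend of each library removed (the corrected value) is given where it changes a call or moves a value of Met against DMSO by over 1.5 times. The label of a ductal carcinoma was checked against markers. KRT18 (9398 to 18721 normalized counts) and SOX9 (3405 to 5140) were high, whereas EPCAM was at 3.78 to 12.5 and KRT19 at 14.6 to 75.0, the mesenchymal marker VIM was at 93661 or more, and the acinar genes CPA1 and AMY2A were at 0 in all 12 libraries. The summed level of 8 epithelial and ductal markers moved with metformin, from 25327 to 26266 in DMSO to 16512 to 19694 in Met, with 19378 to 22878 in FK and 16238 to 19672 in Met+FK. KRT18 carried most of this sum (18307 in DMSO, 10421 in Met on average), and the list did not move together. In Met against DMSO KRT18, KRT19 and KRT8 passed the test as lower, CDH1 (28.5 to 61.4) and SOX9 (3781 to 4444) as higher, and KRT7 and MUC1 did not pass. The part of these shifts in the results below was not tested, and in bulk RNA fewer cells of a kind cannot be told apart from less RNA per cell.

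More members were lower than higher with metformin, and EBP, ACAT2 and STARD4 changed the most. Of 31 members, 25 had a negative log2 fold change in Met against DMSO, and 19 had an adjusted p-value under 0.05 with lower and 2 with higher expression, where the shares among all genes tested were 25.9% and 24.9%. As DEGs, 6 members were lower (EBP, ACAT2, STARD4, DHCR7, FDPS and FASN), against 10.2% of all genes, and 0 were higher in limma-trend, against 12.8%. edgeR called 1 member higher and DESeq2 0, and 21 members had an unadjusted p under 0.05 in limma-trend, as had 8799 of the 15376 genes. The median log2 fold change was −0.32 in the sterol branch, −0.22 among the regulators and −0.19 in the fatty acid branch, beside 0.012 over all genes tested. With the libraries scaled to the same total the median of all genes in this comparison became 0.134, the branch medians −0.20 and −0.07, and 22 members stayed negative, with 2 DEGs higher and 3 lower. A direction below that turns under that scaling is given with its value there.

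**Figure D1:**
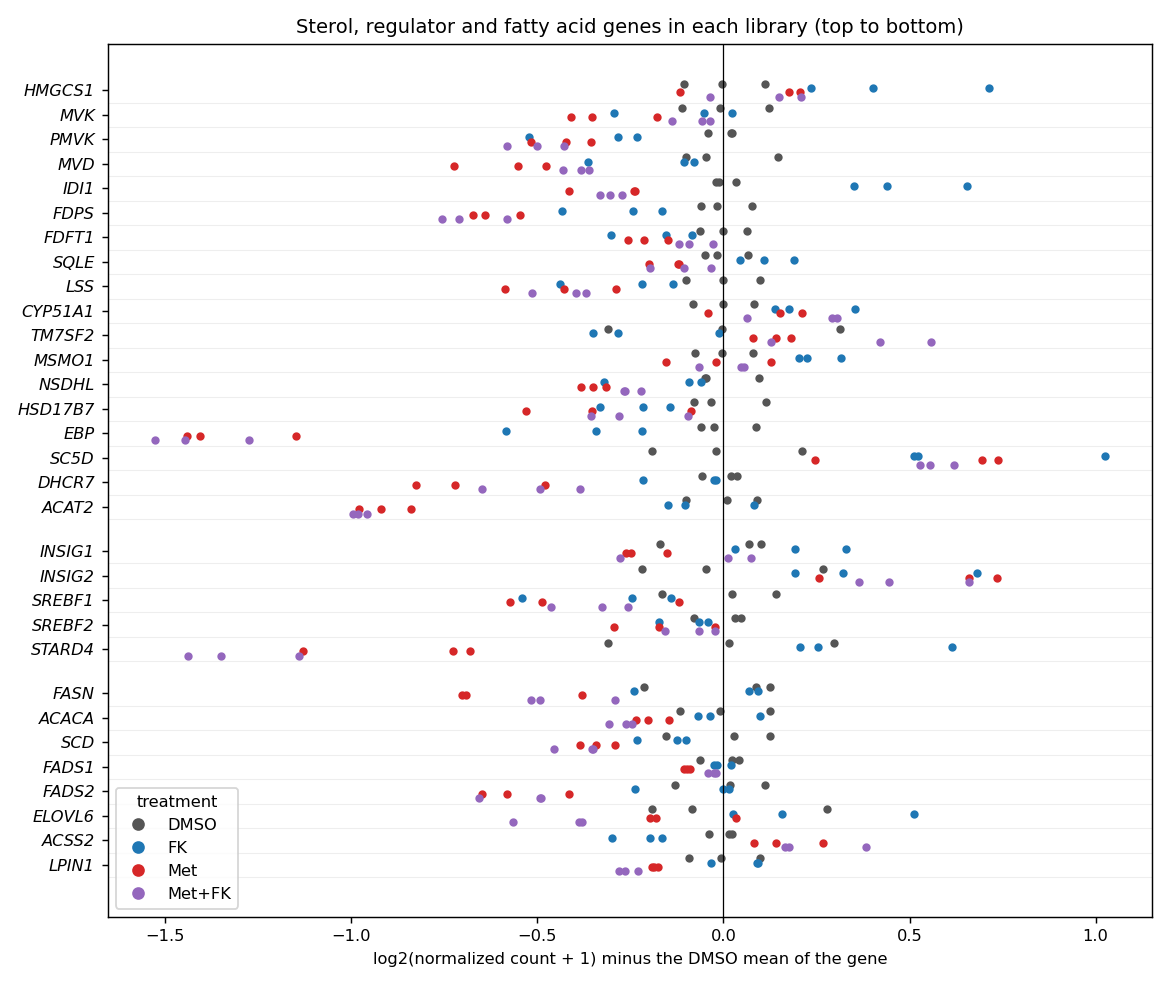
Each point is 1 library, 3 per treatment, and the x axis gives log2(normalized count + 1) minus the DMSO mean of that gene, with the sterol genes at the top, the regulators in the middle and the fatty acid genes at the bottom. The Met and Met+FK points of EBP and ACAT2 lie left of all their DMSO and FK points, whereas those of SC5D lie right of all its DMSO points.

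In the sterol branch the steps that feed it were unequal. ACAT2 (ENSG00000120437, chromosome 6, 159762045 to 159779112) makes acetoacetyl-CoA, the starting unit of mevalonate. It was at 2508, 2195 and 2370 normalized counts in DMSO and at 1316, 1194 and 1243 in Met. It was at 2494, 2123 and 2192 in FK and at 1211, 1191 and 1180 in Met+FK. Libraries with metformin did not overlap those without, and the log2 fold change of Met against DMSO was −0.91 ± 0.082 (SE, adjusted p = 6.46e-07). TCP1, a chaperonin gene on the opposite strand that shares 615 bases with ACAT2 and had a higher mean count (14591), changed by −0.32 in the same comparison. Whether the counting used strand is not stated, so reads of the shared stretch are uncertain.

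HMGCS1, which condenses acetoacetyl-CoA to HMG-CoA, turned its direction with the processing. Its log2 fold change in Met against DMSO was 0.09 ± 0.12 (SE, adjusted p = 0.564), with overlapping libraries (1388 to 1735 in Met, 1397 to 1626 in DMSO). Its corrected value was −0.22, and passed the test (adjusted p = 0.00752). The kinases and the decarboxylase that turn mevalonate into isopentenyl diphosphate were lower, MVK by −0.31, PMVK by −0.43 and MVD by −0.58, with adjusted p-values of 0.021, 0.00121 and 0.000332. The corrected value of MVK was −0.16 and did not pass (adjusted p = 0.055), and that of PMVK was −0.26 and did. MVK shares 326 bases with MMAB, a gene on the opposite strand with a mean count of 584 against 537 for MVK and a change of −0.10 (adjusted p = 0.418), so its value is uncertain. MVD lay just under the fold threshold, and was over it in 4 of 6 fits that left out 1 library.

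FDPS, farnesyl diphosphate synthase (ENSG00000160752, chromosome 1, 155308748 to 155320666), was at 4020, 3767 and 3652 in DMSO, 3400, 2819 and 3221 in FK, 2388, 2444 and 2605 in Met and 2326, 2256 and 2545 in Met+FK. No library with metformin reached any without it. The log2 fold change of Met against DMSO was −0.62 ± 0.083 (SE, adjusted p = 2.76e-05), and it was −0.58, under the fold threshold, without DMSO replicate 1. IDI1, the isomerase of isopentenyl diphosphate, changed by −0.30 (adjusted p = 0.0129), with a corrected value of −0.54, and the squalene synthase and epoxidase genes FDFT1 and SQLE by −0.21 and −0.15, of which the second did not pass the test (adjusted p = 0.0933). The corrected value of SQLE was −0.20 and passed (adjusted p = 0.00334).

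EBP, the isomerase that shifts a double bond within the sterol rings, had the largest change of all 31 members in Met against DMSO. The gene (ENSG00000147155, chromosome X, 48521799 to 48528716) was at 4966, 4484 and 4595 normalized counts in DMSO and at 4021, 3122 and 3688 in FK. In Met it was at 1764, 1722 and 2110, and in Met+FK at 1716, 1622 and 1933. The mean fell from 4682 ± 252 to 1865 ± 213 (SD, n = 3) with metformin, a log2 fold change of −1.33 ± 0.11 (SE, adjusted p = 1.88e-07), and it remained a DEG with each library left out, at −1.42 to −1.28. In DMSO it also had the highest level per length of the 31 genes, at 4162 normalized counts per kb of transcript, ahead of FDPS at 2691. Its printed promoter segment holds 3 CCAAT boxes. Among windows not printed, those of FDPS and MVD also held 3, and those of MSMO1, MVK and NSDHL held 4.

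The other enzymes between lanosterol and cholesterol split. DHCR7, the reductase of the last step (ENSG00000172893, chromosome 11, 71428193 to 71452868), was at 3358, 3149 and 3326 in DMSO, 3231, 2821 and 3219 in FK, 1846, 1985 and 2350 in Met and 2088, 2328 and 2508 in Met+FK. Its log2 fold change in Met was −0.68 ± 0.097 (SE, adjusted p = 5.17e-05). The cyclase LSS, which makes lanosterol, changed by −0.44, the dehydrogenase NSDHL by −0.35 and the reductase HSD17B7 by −0.32, with adjusted p-values of 0.00192, 0.00271 and 0.0417. The demethylase CYP51A1 (0.11), the reductase TM7SF2 (0.13) and the oxidase MSMO1 (−0.02, and 0.11 with the same total) did not pass the test, with adjusted p-values of 0.347, 0.542 and 0.891. Their corrected values were −0.10, 0.30 and −0.25, of which that of MSMO1 passed (adjusted p = 0.00888). SC5D, the desaturase next to DHCR7 in the route, went the other way, at 886, 1041 and 787 in DMSO and 1456, 1500 and 1066 in Met, a log2 fold change of 0.56 (adjusted p = 0.00617) that became 0.18 (adjusted p = 0.0169) once the GC and length trend was removed. SC5D and INSIG2 were both higher DEGs when DMSO replicate 2 or Met replicate 3 was left out.

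Among the regulators, STARD4, which carries cholesterol between membranes, was the 1 DEG of 5. The gene (ENSG00000164211, chromosome 5, 111496033 to 111512590) has low counts, at 125, 152 and 99.2 in DMSO, 147, 189 and 142 in FK, 74.2, 76.5 and 55.8 in Met and 55.4, 47.8 and 44.9 in Met+FK. The highest library with metformin was below the lowest without. The log2 fold change of Met against DMSO was −0.85 ± 0.19 (SE, adjusted p = 0.00155), and −1.21 with the GC and length trend removed. SREBF1 changed by −0.39 (adjusted p = 0.0184, corrected value −0.25) with overlapping libraries, and RAI1, which overlaps it on the opposite strand with a higher mean count, by −0.20. SREBF2 (−0.16, adjusted p = 0.104) and INSIG1 (−0.22, adjusted p = 0.114) did not pass. The corrected value of INSIG1 was −0.32 and passed (adjusted p = 0.0068), and that of SREBF2 was −0.06 and did not. INSIG2 was higher, by 0.55 (adjusted p = 0.0099), with overlapping libraries and a change of 0.24 (adjusted p = 0.0238) after removal of the trend.

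In the fatty acid branch, FASN, the fatty acid synthase (ENSG00000169710, chromosome 17, 82078338 to 82098294), was the 1 DEG of 8. It was at 12199, 9647 and 11887 in DMSO, 11928, 9466 and 11719 in FK, 6923, 6871 and 8592 in Met and 7821, 7949 and 9144 in Met+FK. The 6 libraries with metformin all lay below the 6 without. The log2 fold change of Met against DMSO was −0.59 ± 0.12 (SE, adjusted p = 0.000692), only just over the fold threshold. It was −0.53 without DMSO replicate 1, −0.55 without DMSO replicate 3, −0.54 without Met replicate 1 and −0.54 without Met replicate 2, each under that threshold with an adjusted p-value of at most 0.00554.

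FADS2, a desaturase of polyunsaturated fatty acids, changed by −0.55 (adjusted p = 0.000415) and the stearoyl-CoA desaturase SCD by −0.34 (adjusted p = 0.0019). The FADS2 span overlaps FADS1 and holds FEN1, a DNA repair nuclease gene with a higher mean count on the same strand that changed by −1.27, so the FADS2 value is uncertain. ACACA, which makes malonyl-CoA, changed by −0.19 (adjusted p = 0.0415) and LPIN1, a phosphatidate phosphatase and coactivator, by −0.19 (adjusted p = 0.0342), with corrected values of −0.41 and −0.30. FADS1 (−0.10), the elongase ELOVL6 (−0.11) and ACSS2 (0.16), which makes acetyl-CoA from acetate, did not pass, with adjusted p-values of 0.189, 0.501 and 0.109. Their corrected values of −0.13, −0.40 and 0.27 all passed, with adjusted p-values of 0.0184, 0.000475 and 0.000342, whereas scaling to the same total turned FADS1 and ELOVL6 to 0.02 and 0.01. ACSS2 shares 711 bases with GGT7 on the opposite strand, at 12.3% of its mean count.

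**Figure D2:**
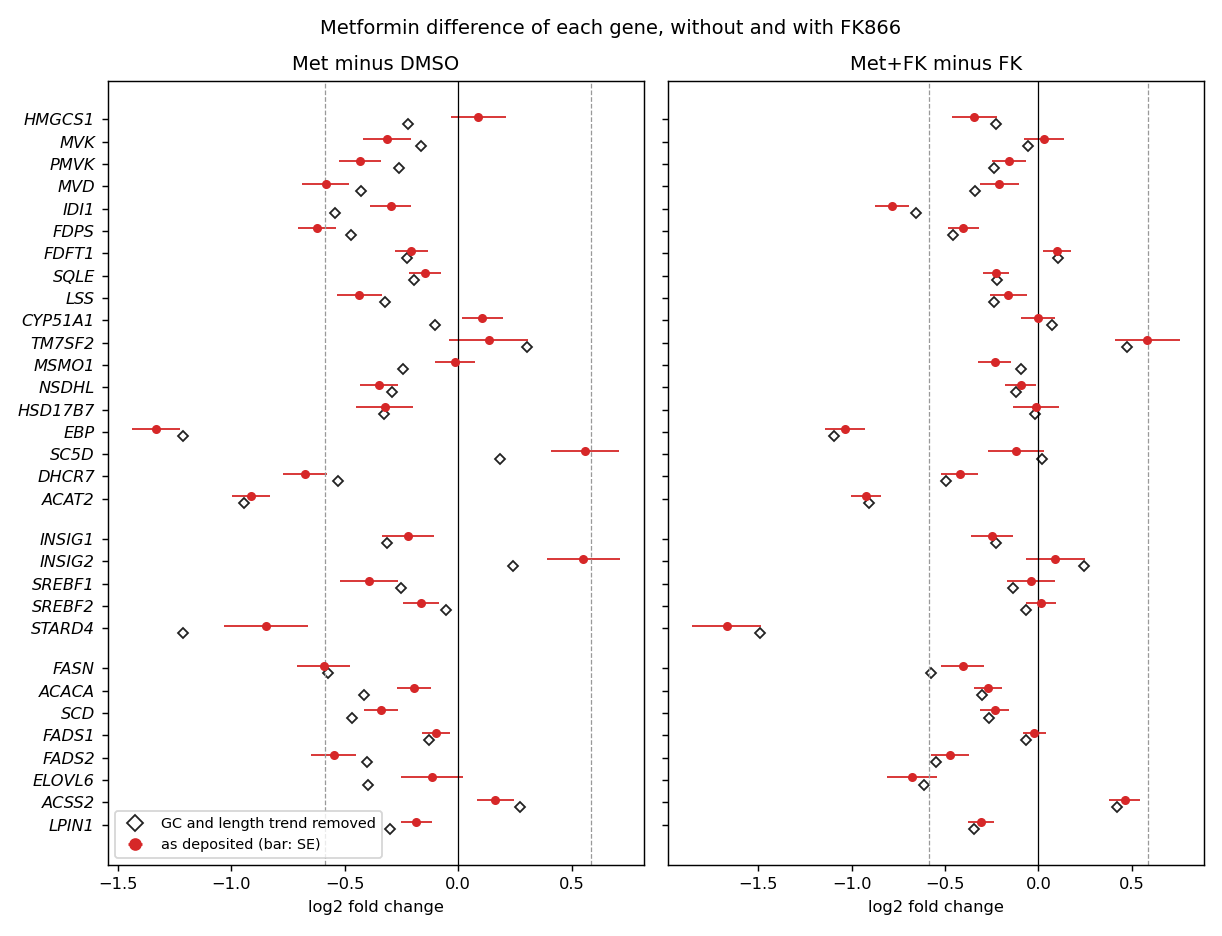
Points give the log2 fold change of each member with its SE (n = 3 libraries per group) for Met minus DMSO on the left and Met+FK minus FK on the right, diamonds the value after removal of the GC and length trend, and dashed lines the fold threshold of 1.5. By their points, EBP, ACAT2 and STARD4 lie beyond the threshold in both panels, DHCR7, FDPS and FASN only in the left one, and IDI1 and ELOVL6 only in the right one.

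Metformin was also compared in the presence of FK866, in Met+FK against FK, which shares no library with Met against DMSO. Here 5 members were lower DEGs, STARD4 (−1.67), EBP (−1.03), ACAT2 (−0.92), IDI1 (−0.78) and ELOVL6 (−0.68), and 0 were higher in limma-trend, where 9.29% and 9.27% of all genes were. edgeR and DESeq2 each called 1 member higher, and 18 had an unadjusted p under 0.05 in limma-trend, as had 7697 of all genes. By adjusted p-value alone 15 members were lower and 2 higher, against 21.7% and 20.5% of all genes. Medians were −0.18 in the sterol branch, −0.04 among the regulators and −0.29 in the fatty acid branch, beside −0.011 over all genes. EBP, ACAT2 and STARD4 were DEGs in both comparisons, whereas DHCR7 (−0.42), FDPS (−0.40) and FASN (−0.41) passed the test here and stayed under the fold threshold, with adjusted p-values of 0.00277, 0.00124 and 0.0111.

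IDI1 (ENSG00000067064, chromosome 10, 1039152 to 1049170) and ELOVL6 (ENSG00000170522, chromosome 4, 110045846 to 110199199) were DEGs here and not in Met against DMSO, though the difference between the comparisons did not pass limma-trend (adjusted p = 0.111 and 0.112). IDI1 was at 1189, 1380 and 1118 in FK and 710, 725 and 697 in Met+FK, and at 869, 897 and 863 in DMSO and 742, 744 and 657 in Met. ELOVL6 was at 916, 1285 and 1004 in FK and 607, 691 and 688 in Met+FK, and at 787, 1092 and 848 in DMSO and 785, 921 and 793 in Met. The FK libraries of IDI1 lay above all the others, and the Met+FK libraries of ELOVL6 lay below all the others. Without FK replicate 2, the highest of these, ELOVL6 changed by −0.54 and was no DEG. ACSS2 rose by 0.46 (adjusted p = 0.000393), under the fold threshold, and TM7SF2, which overlaps the more abundant VPS51 at its edge, by 0.58 (adjusted p = 0.0144).

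Both drugs together were set against the vehicle, a comparison that shares its DMSO libraries with Met against DMSO. Lower DEGs were EBP (−1.42), STARD4 (−1.31), ACAT2 (−0.98) and FDPS (−0.68), 4 of 31 against 11.3% of all genes, and 0 members were higher in limma-trend against 13.7%. edgeR called 1 member higher, DESeq2 0, and 21 had an unadjusted p under 0.05, as had 8874 of all genes. By adjusted p-value alone 17 were lower and 3 (SC5D, INSIG2 and ACSS2) higher, against 26.1% of all genes in each direction. Medians were −0.25 in the sterol branch, −0.08 among the regulators and −0.33 in the fatty acid branch. The corrected value of FDPS was −0.55, under the fold threshold. That of ELOVL6 was −0.68 (adjusted p = 1.2e-06), a lower DEG, where its deposited value was −0.44.

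With FK866 alone members passed the test about as often as genes in general, and the sign of their change moved with GC content. SC5D (ENSG00000109929, chromosome 11, 121292681 to 121313410) was the 1 DEG, at 1282, 1830 and 1291 in FK against 886, 1041 and 787 in DMSO, without overlap. The log2 fold change was 0.69 ± 0.15 (SE, adjusted p = 0.0173), where 2.73% of all genes were higher DEGs. The call was lost without DMSO replicate 1 (0.68, adjusted p = 0.0849), DMSO replicate 3 (0.59, 0.0588) or FK replicate 2 (0.52, 0.0603), each with p over 0.05. In limma-trend 0 members were lower DEGs, against 0.754% of all genes, edgeR and DESeq2 gave 0 as well, and 13 members had an unadjusted p under 0.05, as had 6488 of all genes.

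By adjusted p-value alone 3 members were higher with FK866, SC5D, IDI1 (0.48) and HMGCS1 (0.45), and 3 lower, EBP (−0.38), PMVK (−0.35) and FDPS (−0.28), against 11.3% and 9.84% of all genes. Fitted with a replicate block these counts were 7 and 8, against 23.3% and 21.3%. The 11 members with a positive value had a median transcript GC of 39.0% and the 20 with a negative value one of 56.5%, beside 48.5% over all genes tested. All of the 8 members lowest in GC were positive, and 3 of the other 23. With the GC and length trend removed SC5D kept 0.24 (adjusted p = 0.0208) and was higher, while EBP (−0.21), SCD (−0.25) and FDFT1 (−0.19) were lower, against 4.25% and 6.83% of all genes. IDI1 (0.16) and HMGCS1 (0.09) no longer passed, and neither did PMVK (−0.12) and FDPS (−0.09).

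**Figure D3:**
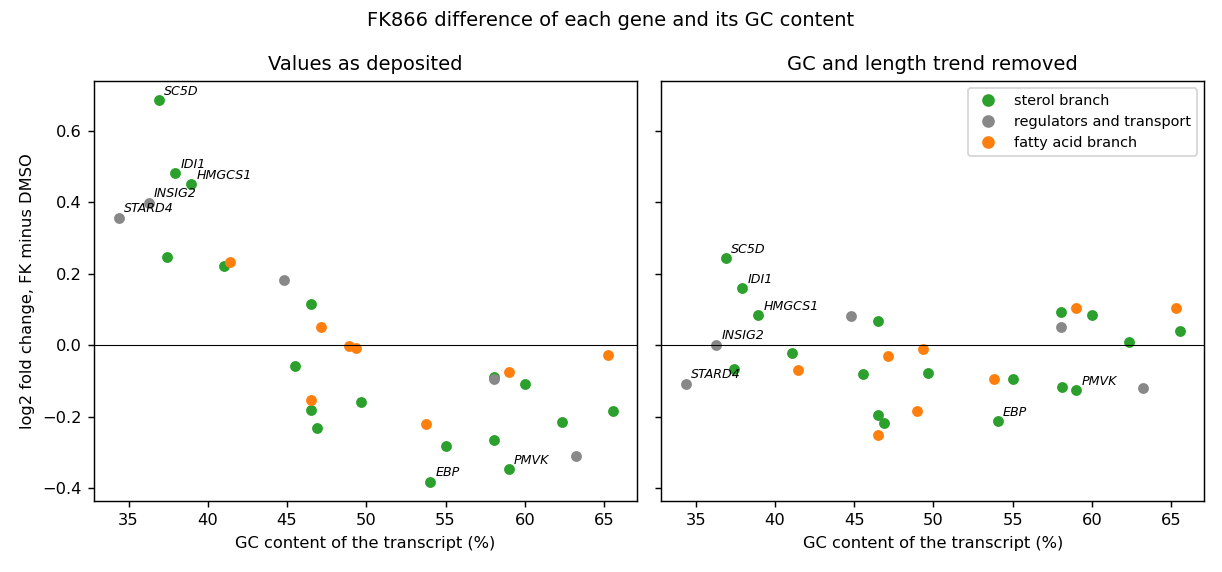
The log2 fold change of FK against DMSO of each of the 31 members is plotted against the GC content of its transcript, as deposited on the left and with the GC and length trend of each library removed on the right. On the left the values run from 0.69 (SC5D) to −0.38 (EBP), with the 8 members lowest in GC all above 0, and on the right all lie between −0.25 and 0.24.

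Under the same correction more members passed the test with metformin, and fewer were DEGs in Met against DMSO. In Met against DMSO 24 members were lower and 3 higher by adjusted p-value, against 32.5% and 24.8% of all genes, and the branch medians were −0.28 (sterol) and −0.40 (fatty acid). EBP, ACAT2 and STARD4 stayed DEGs, while DHCR7, FDPS and FASN fell under the fold threshold at −0.53, −0.47 and −0.57. In Met+FK against FK 18 were lower and 3 higher, against 28.5% and 25.8%, and in Met+FK against DMSO 18 were lower and 4 higher, against 33% and 27.3%.

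The branches were then summed up per library, as the mean of their members on the log2 scale relative to the DMSO mean. The sterol branch stood at −0.320 ± 0.0058 in Met, −0.261 ± 0.010 in Met+FK and −0.016 ± 0.036 in FK (SD, n = 3 each). The fatty acid branch stood at −0.239 ± 0.046 in Met, −0.266 ± 0.035 in Met+FK and −0.025 ± 0.036 in FK. In either branch every library with metformin was below every library without, and FK overlapped DMSO in the deposited values. The 3 Met libraries of the sterol branch (−0.327 to −0.316) were below its Met+FK libraries (−0.273 to −0.255), whereas those of the fatty acid branch overlapped (−0.271 to −0.186 and −0.290 to −0.226). As a share of all normalized counts of the library, the sterol sums of Met (0.0830% to 0.0841%) and Met+FK (0.0830% to 0.0849%) overlapped. After removal of the GC and length trend the fatty acid branch stood at −0.301 ± 0.0088 in Met and the sterol branch at −0.333 ± 0.0056, closer to each other than in the deposited values. The branches moved apart in Met+FK, to −0.340 ± 0.028 (fatty acid) and −0.273 ± 0.010 (sterol), and in FK, to −0.053 ± 0.046 and −0.023 ± 0.054. By the branch medians given above, the order of the branches in Met turned under this correction. The FK libraries of the fatty acid branch (−0.104 to −0.0169) then lay below its DMSO libraries (−0.0114 to 0.0061). As sums of normalized counts the sterol genes went from 35435 to 37046 in DMSO to 27617 to 27835 in Met, and the fatty acid genes from 34318 to 39003 to 29270 to 31560. No test was made of the difference between the branches, whose members were chosen by name with earlier results of these data known.

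**Figure D4:**
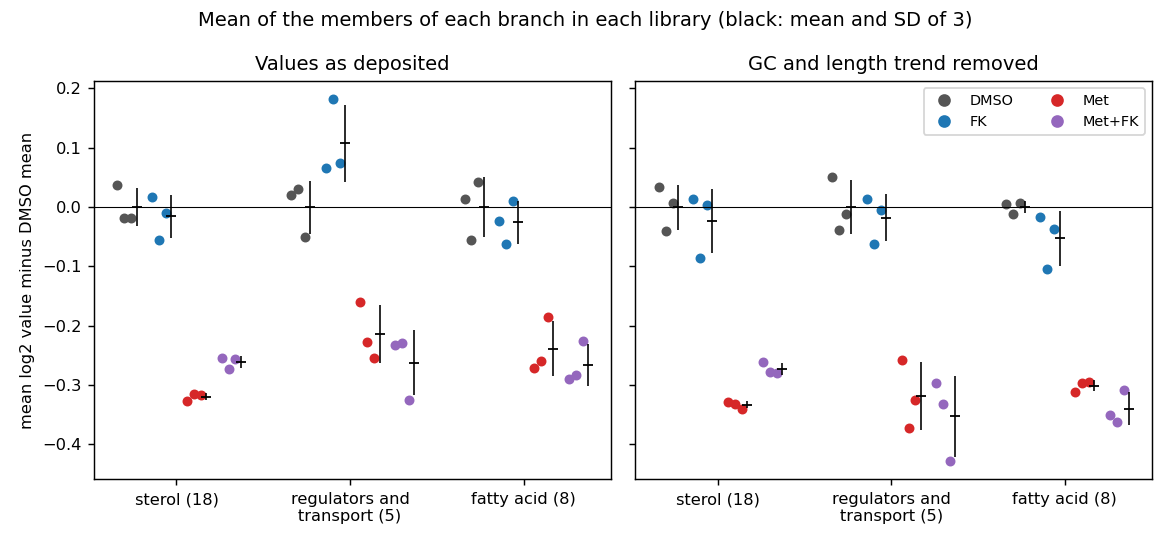
Each point is the mean over the members of a branch in 1 library, on the log2 scale minus the DMSO mean, with black marks for the mean and SD of 3 libraries, as deposited on the left and with the GC and length trend removed on the right. The Met and Met+FK points lie between −0.161 and −0.327 on the left, below all DMSO and FK points.

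FK866 added to metformin was compared in Met+FK against Met. Here 0 members were DEGs in limma-trend, edgeR or DESeq2, and 3 had an unadjusted p under 0.05 in limma-trend (1051 of all genes), where 0.052% of all genes were higher and 0.0065% lower DEGs. Values ranged from −0.46 (STARD4) to 0.24 (MVK). With the trend removed and a replicate block, ELOVL6 passed as lower (−0.29, adjusted p = 0.0143) and 0 members as higher, against 1.38% and 2.01% of all genes. The interaction, the effect of metformin with FK866 minus that without, was positive in 18 members and negative in 13, and limma-trend and edgeR called 0 members at an adjusted p of 0.05, with 10 and 9 at an unadjusted p under 0.05 (4695 of all genes in limma-trend). Among all genes 0.0065% were higher and 0.052% lower. DESeq2 gave 2 lower members, IDI1 and SC5D, and 0 higher, against 2.81% and 1.71% of all 15376 genes, with or without an adjusted p. It gave no adjusted p for STARD4 (−0.84) and TM7SF2 (0.47) there, so neither could be called.

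Libraries of DMSO and FK, and of Met and Met+FK, with the same number had deviations that correlated across genes at each number. Libraries with different numbers were not compared in this way. The replicate block held a term for each number that was shared by all treatments. Other pairs of treatments were not read as paired, so adjusted p-values with the block assume more pairing than was read. With this block 7 members had a higher and 6 a lower interaction, against 15.5% and 16.5% of all genes. The lower ones were STARD4 (−0.82), SC5D (−0.68), ELOVL6 (−0.56), IDI1 (−0.49), INSIG2 (−0.46) and HMGCS1 (−0.43), with adjusted p-values of 0.00582 to 0.0314, and the higher ones MVD, SREBF1, MVK, FDFT1, ACSS2, EBP and LSS (0.27 to 0.38). The 13 negative members had a median GC of 41.0% and the 18 positive ones one of 58.1%. With the trend removed and the block kept, FDFT1 alone was higher (0.33, adjusted p = 0.012) and 0 members were lower, against 4.81% and 2.16% of all genes. Without FK replicate 1 and without the block, 1 member was higher and 3 were lower.

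Genes beside the members in these routes were followed from lists drawn up by function, to be read against the 12.8% of all genes that were higher and the 10.2% that were lower DEGs in Met against DMSO. No list was tested against these shares. Of 7 further isoprenoid genes tested, 1 was a higher and 1 a lower DEG in Met against DMSO, GGPS1 (0.68), which makes geranylgeranyl diphosphate, and PDSS1 (−0.62), which makes the tail of ubiquinone. Of 10 genes for SREBP escort, cleavage and turnover 0 were DEGs there in limma-trend, with 6 at an unadjusted p under 0.05, and 2 were higher and 1 lower by adjusted p-value, against 24.9% and 25.9% of all genes. Of 15 genes for sterol storage, export and uptake, 3 were higher, the cholesterol exporters ABCA1 (0.96) and ABCG1 (0.88) and the lipid transfer gene GRAMD1C (0.71). ABCA1 went from 294 ± 30.0 in DMSO to 575 ± 70.5 in Met and ABCG1 from 86.6 ± 6.78 to 162 ± 34.0 (SD, n = 3), both also DEGs in Met+FK against FK (0.74 and 1.04).

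Of 26 other fatty acid synthesis genes tested, 2 were higher and 5 lower DEGs in Met against DMSO. The elongase ELOVL7 (1.22) and the malic enzyme ME1 (0.70) were the higher ones, and the desaturase SCD5 (−0.97) and the citrate carrier SLC25A1 (−0.68) the lowest. Among 11 glycerolipid genes LPIN2 (0.99) was higher and the acyltransferase GPAT4 (−0.59) lower, the latter in 2 of 6 fits that left out 1 library. Of 15 genes of fatty acid oxidation and ketogenesis the regulator PPARA (0.71) was higher and ANGPTL4 (−0.69), which encodes an inhibitor of lipoprotein lipase, lower. Of 6 AMPK subunits tested, all had positive values, 4 were higher by adjusted p-value and PRKAB2 (1.21) was a DEG, from 837 ± 36.7 to 1945 ± 152 (SD, n = 3). FK against DMSO gave 1 DEG in these lists, the elongase ELOVL4 (0.65, adjusted p = 0.0181), which was called in 3 of 6 fits that left out 1 library.

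Across the 12 libraries, which share treatments, the genes with a log2 profile closest to the mean of the sterol branch by Pearson's r, among 11521 with a mean of at least 100, were POLH (0.995), CALR (0.992), CCNB2 (0.988), NCAPH (0.988) and MANF (0.988). The closest member was ACAT2 (0.975, rank 55), followed by EBP (0.957, rank 232), and the lowest was ACSS2 (−0.744). ACAT2 and EBP are themselves part of that mean, and TM7SF2, with a mean under 100, was not ranked. The values describe likeness over 12 points that fall into libraries with and without metformin.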

How the data were processed

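RNA of KP4 cells was sequenced after rRNA depletion, in 12 libraries of 3 per treatment. Per the methods, the authors used cutadapt for trimming, STAR with hg38 for alignment, featureCounts for pairs whose 2 ends both mapped, and DESeq2 for size factors. The deposited values are therefore a signal, normalized counts that are never negative, for 36601 genes (9803 without reads). The annotation and the strand setting are not given in the sources used here. All values (100%) were whole multiples of 1 read pair within 0.01 reads, with size factors of 0.867 to 1.21 and 30667735 to 41052203 read pairs per library, and counts of replicates were further apart than sampling alone gives (chi-square over its degrees of freedom, 5.69 to 51.5). Starts were raised by 1, after which 83.6% of 36366 genes matched GENCODE 44.

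Limma-trend (limma 3.58.1, R 4.3.3) was fitted to log2(normalized count + 1) of the genes whose mean reached 10, with 1 mean per treatment. In simulated counts for Met against DMSO with 200 of 15376 genes changed 2-fold, 171 (85.5%) were recovered with 7 false calls. The simulated libraries held no GC trend and no deviation shared by replicate number. Among the members only EBP changed by more than 2-fold in that comparison, so these rates may not hold for the members. The members and gene lists were chosen with earlier results of these data known. Values per library are given for members that were DEGs in any comparison. From other lists, up to 2 DEGs with the highest and 2 with the lowest change are named. edgeR 4.0.16 and DESeq2 1.42.0 were run on the recovered read pairs. A loess trend (span 0.3) on GC content and length of the canonical transcript, known for 99.7% of genes, was removed in an alternative. Replicate numbers were read, from the values alone, as pairing DMSO with FK and Met with Met+FK, since deviations of same-numbered libraries correlated across genes (0.252, 0.420 and 0.219, and 0.171, 0.200 and 0.226). In the other pairs of treatments at least 1 number fell to 0.051 or less, so these were not read as paired. Numbers 2 and 3 of FK with Met (0.40 and 0.30) and of DMSO with Met (0.33 and 0.25) were nevertheless above every value of Met with Met+FK. Correlations between libraries of different numbers were not computed. After the GC correction the lowest of the 6 values of DMSO with FK and Met with Met+FK was 0.074. FK with Met then gave 0.117, 0.144 and 0.122 and DMSO with Met 0.073, 0.120 and 0.132. DMSO or FK with Met+FK gave at most 0.093. The reading of pairs therefore rests on the deposited values. Of the 31 members, 7 overlap a gene with at least 10% of their mean count.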

Additional observations from a re-analysis of the deposited data

How the results depend on the processing

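The alternatives were pseudocounts of 0.1 and 10, other gene filters, the same total, TMM, fits of only the libraries compared, the replicate block, removal of the GC and length trend, edgeR, DESeq2, a call by adjusted p only, and leave-one-out fits. Leaving out DMSO replicate 2 and FK replicate 2 together was added after seeing the data. No call of a named member turned its direction, and the calls of ACAT2, EBP, STARD4 and IDI1 held in every alternative run. The replicate block raised the interaction counts to 7 higher and 6 lower. It changed no count of DEGs among the members in the other comparisons. The block was shared by all treatments, while numbers were read as pairing libraries only in FK against DMSO and Met+FK against Met. By adjusted p alone it gave 5 higher members, not 3, in Met+FK against DMSO (CYP51A1 and TM7SF2 added), 21 lower and 3 higher in Met against DMSO (SQLE, SREBF2 and ACSS2 added) and 18 lower in Met+FK against FK (MVD, LSS and INSIG1 added), while calls over all genes rose as well, in Met against DMSO from 3989 to 4607 lower. Members called lower and higher in Met against DMSO were 3 and 2 with the same total and 19 and 2 by adjusted p alone, with 3 lower after the GC correction with or without the block, 1 higher in edgeR and 2 higher without DMSO 2 and FK 2. In FK against DMSO they were 3 and 3 by adjusted p alone, and 0 higher after the GC correction or with only the libraries compared. In Met+FK against DMSO they were 17 and 3 by adjusted p alone, with 1 higher with the same total or in edgeR and 2 higher without DMSO 2 and FK 2. In Met+FK against FK they were 15 and 2 by adjusted p alone, with 1 higher at a pseudocount of 0.1, with the same total, TMM, edgeR or DESeq2. The interaction gave 2 lower in DESeq2 or without DMSO 2 and FK 2, and 1 higher with GC correction and block. Medians of the sterol and fatty acid branches with the same total were −0.197 and −0.0677 (Met), −0.165 and −0.247 (Met+FK), −0.125 and −0.230 (Met+FK against FK), −0.0079 for the sterol branch (Met+FK against Met), and 0.193 and 0.0141 (interaction). After the GC correction, with or without the block, they were −0.278 and −0.399 (Met), −0.215 and −0.458 (Met+FK), 0.0847 and 0.0286 (interaction), and for the sterol branch −0.0431 (FK), −0.226 (Met+FK against FK) and 0.0823 (Met+FK against Met). edgeR gave sterol medians of −0.281 (Met), −0.106 (FK), −0.216 (Met+FK) and 0.226 (interaction), and leaving out DMSO 2 and FK 2 gave −0.0843 (FK) and 0.186 (interaction). With 1 library left out, members lower ranged from 4 to 8 in Met (4 without DMSO 1, 8 without DMSO 2 or Met 3), and members higher from 0 to 2 in Met (2 without DMSO 2 or Met 3), 0 to 1 in FK (0 without DMSO 1, DMSO 3 or FK 2), 0 to 2 in Met+FK (2 without DMSO 2, 1 without Met+FK 3), 0 to 1 in Met+FK against FK (1 without FK 3 or Met+FK 2), and the interaction gave 1 higher and 3 lower without FK 1, against 0 otherwise. Sterol medians then ranged from −0.342 to −0.296 (Met), −0.169 to −0.0492 (FK), −0.281 to −0.216 (Met+FK), −0.206 to −0.167 (Met+FK against FK), 0.0080 to 0.0897 (Met+FK against Met) and 0.180 to 0.296 (interaction), and fatty acid medians from −0.221 to −0.147 (Met), −0.0971 to 0.0188 (FK), −0.344 to −0.291 (Met+FK), −0.317 to −0.254 (Met+FK against FK) and 0.0304 to 0.125 (interaction). The cause of these shifts was not tested. Of the values of called members under alternatives, 294 kept their call and 26 lost it. Those kept include the calls by adjusted p only, which a DEG passes by definition. STARD4 and TM7SF2, with means of 101 and 87.9 normalized counts, had the widest errors.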
